A study of Mus musculus with 168 samples.

Results

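Single cells of the subventricular zone (SVZ) of old mice were placed by their messages for ribosomal proteins, and the ribosome-rich cells outside mitosis were set against the low-ribosome cells. The share R is the summed TPM (transcript abundance scaled to the same total in every cell) of 89 ribosomal protein genes as a percentage of the cell's total. Cells with R of 5% or more were called ribosome-rich and cells with R below 2% low-ribosome, in each case with fewer than 2 of the mitotic genes Mki67, Top2a, Cdk1, Ccnb1 and Ube2c at 1 TPM or more. This gave 14 ribosome-rich and 76 low-ribosome cells, together 90 of the 133 SVZ cells and of the 150 single cells in the study. The other SVZ cells were 13 mitotic cells and 30 intermediate cells with R between both thresholds. Since R chose the classes, every difference between them is given as a description, and no difference was tested.

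All these cells came from untreated male C57BL/6 mice, labelled as 23 months old, while the protocol gives 22 months for SVZs pooled from 4 mice. They were sorted as CD45 and O4 negative, CD133 and GLAST positive, picked by hand and sequenced by Smart-seq2, which reads full-length transcripts of 1 cell at a time. The column names hold 2 series, ogp with 8 ribosome-rich and 30 low-ribosome cells and ogp2 with 6 and 46, and the labels do not say how the series differ. No animal is named for a cell, so cells are not replicates and each class counts as 1 sample. An SD describes how cells differ from each other. Cells are named by series and number, such as ogp15 and ogp2 41.

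Most stem cells of the adult SVZ are quiescent and share much of their expression with astrocytes. Cells that leave quiescence are known to raise ribosome production and protein synthesis, to express the growth factor receptor Egfr, and later to divide as transit amplifying cells that give rise to neuroblasts. Many messages of the translation machinery begin with a run of pyrimidines, the 5′ terminal oligopyrimidine (TOP) tract, through which mTOR signalling is known to control their translation.

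Messages that carry such a tract were the first non-ribosomal group examined, and the start-site sequences of 7 of them are shown as context for the translation genes below. Each line holds 10 bases before the RefSeq transcript start and 20 bases from it, on the gene's strand, 5′ to 3′, from RefSeq on GRCm38.p6. Capitals mark a C at the start followed by at least 4 further C or T bases. Rps6 is a ribosomal protein gene of the rule, and the others are the 6 genes of the TOP list (established TOP messages outside the ribosomal protein genes of the rule) whose windows held the run. Fau and Rack1 encode a ribosomal protein and a protein of the small subunit, but their symbols lie outside the rule.
Eif2s3x (chrX:94212632-94212661, minus strand): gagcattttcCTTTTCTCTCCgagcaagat
Eif3f (chr7:108934405-108934434, plus strand): tctaggctctCTCTCTTTCTCggcaagatg
Fau (chr19:6057937-6057966, plus strand): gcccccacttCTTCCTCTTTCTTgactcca
Gas5 (chr1:161035156-161035185, plus strand): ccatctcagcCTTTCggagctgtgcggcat
Nap1l1 (chr10:111473217-111473246, plus strand): gctctcgggtCTTTTTTagcgccatctgct
Rack1 (chr11:48800350-48800379, plus strand): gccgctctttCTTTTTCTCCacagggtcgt
Rps6 (chr4:86857348-86857377, minus strand): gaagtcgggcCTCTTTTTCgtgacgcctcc
Of the genes with a window, 6 of 22 in the TOP list (27.3%) and 14 of 65 ribosomal protein genes of the rule (21.5%) held the run, against 813 of 27025 genes in all (3.01%) and 213 of the 7080 genes tested (3.01%). The run was searched on the gene's strand at the annotated start alone. A match describes these letters, and no match says only that the annotated start does not carry them.

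R ran from 5.14% through a median of 7.31% to 15.01% in ribosome-rich cells and from 0.659% through 1.54% to 1.99% in low-ribosome cells. The ribosome-rich cells nearest the upper threshold had R of 5.14% and 5.15%, and the intermediate cells nearest to it 4.19% and 3.81%. At the lower threshold the nearest low-ribosome cells had R of 1.99% and 1.97% and the nearest intermediate cells 2.01% and 2.03%. Gene number moved with the classes, with 3225, 4758.5 and 6285 genes at 1 TPM or more (lowest, median, highest) in ribosome-rich cells and 2066, 3095.5 and 5033 in low-ribosome cells. TPM keeps no read counts, so the depth of each cell is unknown, and 31 of the 76 low-ribosome cells had at least as many genes as the poorest ribosome-rich cell. The part of gene number in the differences below was not tested, but the lists were recomputed against those 31 cells, whose median of 3613 genes is still below that of the ribosome-rich cells. There the list medians, described below for all 76 cells, were 3.53 for activated, 1.68 for TOP and -1.62 for quiescent genes, and the neuroblast and oligodendrocyte lineage lists moved further, to 2.98 and 0.73. In 5 ogp columns the genes add up to only 66189 to 309864 TPM, against 999576 or more in all others. Of these 1 is a ribosome-rich cell (ogp111) and 4 are low-ribosome cells. What the 5 columns lack is not known, so their R, class and levels rest on rescaling the genes that are left. In the gene counts given below, leaving these columns out gave 2508 genes at least 2-fold higher and 1931 lower.

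**Figure D1:**
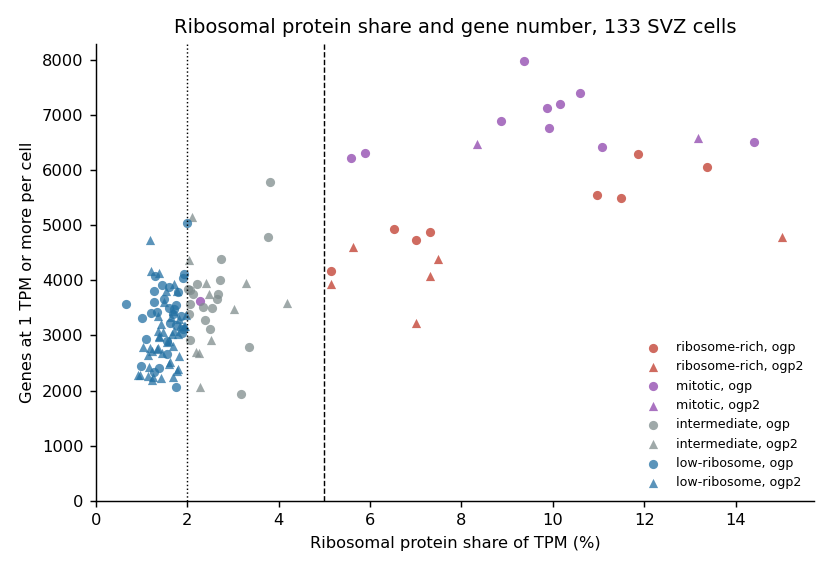
Ribosomal protein share of TPM (x axis, %) and number of genes at 1 TPM or more (y axis) in each of the 133 SVZ cells, coloured by class, with circles for ogp and triangles for ogp2 cells; the vertical lines mark 5% and 2%. Ribosome-rich cells have 3225 to 6285 genes, low-ribosome cells 2066 to 5033, and both series contribute to both classes.

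The name non-mitotic rests on 5 genes, so it was set beside the rest of the division programme. Of the ribosome-rich cells 11 had none of the 5 genes at 1 TPM and 3 had 1 of them. Those 3 were ogp19 with Top2a at 39.5 TPM, ogp111 with Ube2c at 93.2 TPM and ogp2 6 with Mki67 at 4.71 TPM. Among low-ribosome cells, 8 of 76 had 1 of the 5 genes. At least 3 of the helicase genes Mcm2 to Mcm7, which license DNA for replication, were found together at 1 TPM in 2 of 14 ribosome-rich and 0 of 76 low-ribosome cells, against 12 of 13 mitotic cells. The markers given for the class were uneven. Egfr was found in 12 of 14 ribosome-rich and 19 of 76 low-ribosome cells. Rab3b, a small GTPase of regulated secretion, was found in 5 and 1 cells, and Mfng, a glycosyltransferase that modifies Notch, in 3 and 0. The ribosomal stalk gene Rplp0, one of the genes of the rule, averaged 2358 ± 983 TPM in ribosome-rich and 136 ± 179 TPM in low-ribosome cells (SD over 14 and 76 cells), and all 14 ribosome-rich cells lay above the highest low-ribosome cell, as the choice of cells makes likely.

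The sort gate and the other cell types it could let through were read next. Slc1a3, which encodes GLAST, was found in all 90 cells, with a mean of 1682 ± 1230 TPM in ribosome-rich and 4244 ± 1551 TPM in low-ribosome cells. Prom1, which encodes CD133, reached 1 TPM in 1 of 14 ribosome-rich and 2 of 76 low-ribosome cells. Ptprc, which encodes CD45, reached 1 TPM in no cell of either class. Of 15 microglial and immune markers, 14 were in no ribosome-rich cell at 1 TPM and 9 were in no low-ribosome cell; their summed share reached at most 0.0185% of TPM in ribosome-rich and 0.0871% in low-ribosome cells. Of 12 endothelial markers 10 were in no ribosome-rich and 11 in no low-ribosome cell. Of 15 ependymal markers 7 were in no ribosome-rich and 7 in no low-ribosome cell. Of 15 oligodendrocyte lineage markers 11 were in no ribosome-rich and 8 in no low-ribosome cell, Sox10 and Pdgfra among both. Of the 5 at 10 TPM, however, 3 were at least 2-fold higher in ribosome-rich cells and 1 lower, with a median of 1.77 that was 0.74 without ogp39. Olig1, a factor of that lineage and of progenitors, was found in 7 of 14 and 4 of 76 cells, with a log2 ratio of 2.88, and 2.24 without ogp39, while the myelin gene Mbp was found in 0 and 9 cells. The part of that lineage in the results was not tested. The neuroblast marker Dcx, and also Dlx1 and Dlx2, were listed at 0 in all 14 ribosome-rich cells. This allows a share of cells at 1 TPM of up to 21.4% (3 of 14 cells, counting error only). At least 1 of those 3 genes was found in 6 of 76 low-ribosome and 4 of 13 mitotic cells. Dcx itself was at 1 TPM in 0 low-ribosome cells, so its absence does not set the classes apart. The 3 genes were chosen after their values were seen. In the list of neuroblast genes described below, 6 of the 8 at 10 TPM were at least 2-fold higher in ribosome-rich cells and 1 was lower.

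Across 9080 non-ribosomal genes with a mean of at least 10 TPM in either class, 2510 (27.6%) were at least 2-fold higher in ribosome-rich cells and 1921 (21.2%) at least 2-fold lower, on the scale of log2(mean TPM + 1) used throughout. At 4-fold or more the counts were 932 (10.3%) and 923 (10.2%). A gene near 0 TPM in 1 class passes the 10 TPM limit only through the other class and can be counted in 1 direction alone. The median over all these genes was 0.26 on the log2 scale, and scaling by the median ratio moved it to 0.00 and the counts to 2068 higher and 2408 lower, so a list whose median is near 0.26 has moved no further than genes in general. Within the ogp cells 30.3% of genes were 2-fold higher and 25.7% lower, and within the ogp2 cells 27.8% and 29.5%. Of the 4431 genes past 2-fold, 3735 (84.3%) had the same sign in both series; they were chosen on the pooled ratio that the series make up, and across all 9080 genes the log2 ratios of the series correlated with Pearson's r = 0.37, a description across genes that are not independent. With 14 ribosome-rich cells, many genes rest on few of them, and where leaving out 1 cell moves a log2 ratio or list median printed here by more than 1.5-fold, the value without it follows.

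Mycn, a Myc family factor that promotes growth and ribosome production, ran from 0 through a median of 122 to 673 TPM in ribosome-rich cells and never passed 0.38 TPM in low-ribosome cells. It was at 1 TPM or more in 11 of 14 ribosome-rich cells (78.6%, exact Clopper-Pearson 95% interval 49.2 to 95.3) and in 0 of 76 low-ribosome cells. A count of 0 is given a limit of 3 cells, here a share of up to 3.95%. The gene lies at chr12:12936093-12941914 on the minus strand (GRCm38, GENCODE). It was one of 157 of the 9080 genes (1.73%) for which no low-ribosome cell reached 1 TPM. Its relative Myc had a lower mean in ribosome-rich cells, with 7.33 TPM there and 18.8 TPM in low-ribosome cells.

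Egfr, the receptor that marks activated SVZ stem cells, ran from 0 through 129 to 620 TPM in ribosome-rich cells and from 0 through 0 to 323 TPM in low-ribosome cells, a log2 ratio of 3.07 (2.85 within ogp and 2.93 within ogp2). The classes overlapped, with 3 of 14 ribosome-rich cells above the highest low-ribosome cell. Egfr and Mycn were found together in 9 of 14 ribosome-rich cells, 12 of 13 mitotic cells, 0 of 30 intermediate cells and 0 of 76 low-ribosome cells. Every ribosome-rich cell had at least 1 of both genes, while 57 of 76 low-ribosome cells had neither. The low-ribosome cells with Egfr were therefore all without Mycn.

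Of the 20 genes listed for activated stem and transit amplifying cells, 16 reached 10 TPM in either class, of which 14 were at least 2-fold higher and 1 lower in ribosome-rich cells, with a list median of 3.62 (3.74 within ogp, 3.36 within ogp2) beside 0.26 for all genes. The list was compiled with earlier results of these data known. Its summed share of TPM was 0.228%, 0.401% and 0.935% (lowest, median, highest) in ribosome-rich cells and 0%, 0.0317% and 0.285% in low-ribosome cells, and 12 of 14 ribosome-rich cells lay above every low-ribosome cell. Hes6, a Hes-related factor of committed progenitors, averaged 675 ± 476 TPM in ribosome-rich and 54.9 ± 141 TPM in low-ribosome cells, found in 13 and 16 cells. Fabp7, a fatty acid binding protein of radial glia and progenitors, averaged 1636 ± 1238 and 237 ± 374 TPM, found in 13 and 36 cells. Sox4, a transcription factor of progenitors and young neurons, had values up to 148 TPM in 12 of 14 ribosome-rich cells, 11 of them at 1 TPM or more, and was listed at 0 in every low-ribosome cell. Dll1, a Notch ligand, was at 1 TPM in 6 ribosome-rich cells, all of the ogp series, and 0 low-ribosome cells.

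**Figure D2:**
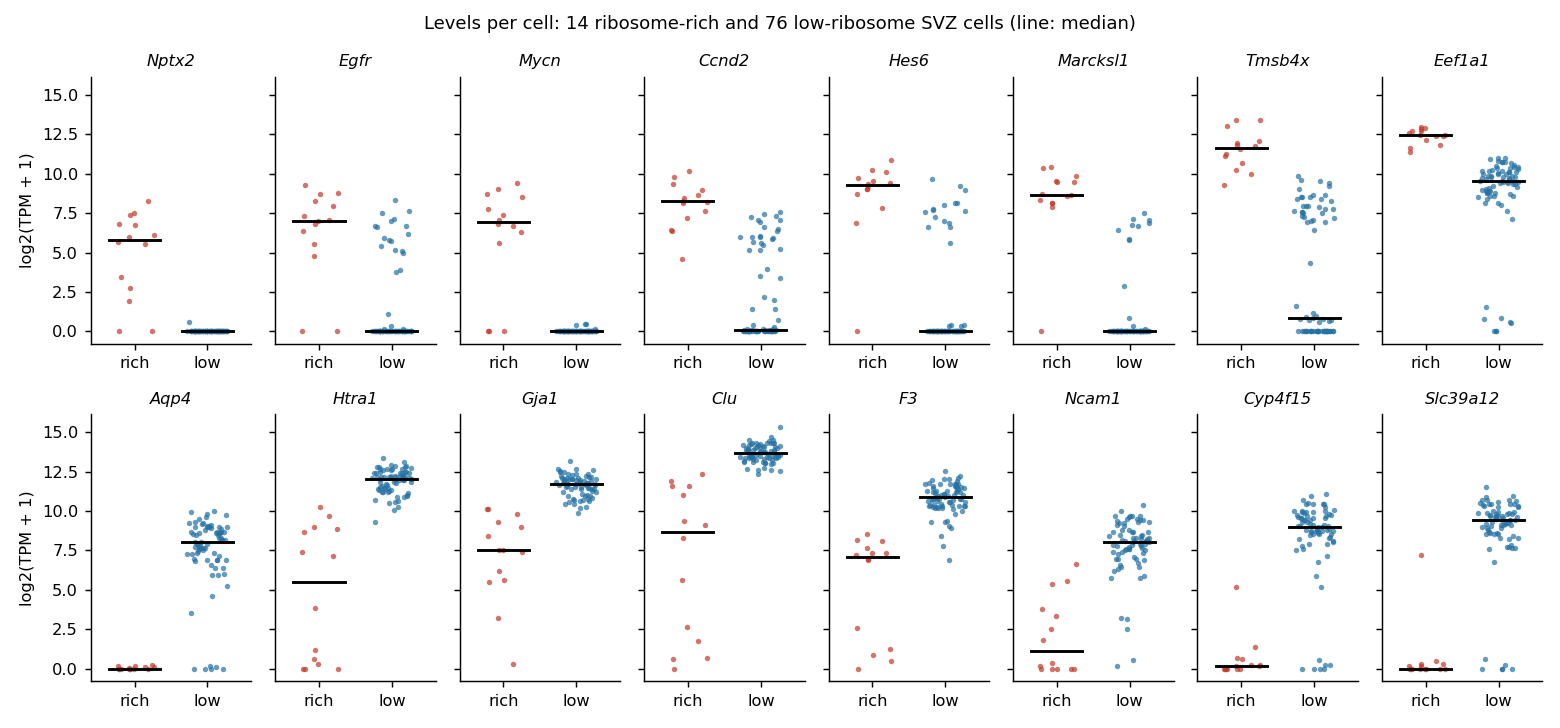
Level of 16 genes in each cell as log2(TPM + 1), with 14 ribosome-rich cells (red) left of 76 low-ribosome cells (blue) and a line at the median of each class. The upper row holds genes higher in ribosome-rich cells, such as Mycn, found in 11 and 0 cells, and the lower row genes lower there, such as Aqp4, found in 0 and 70 cells.

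Of 197 genes that met the conditions for naming in the higher direction, those with the largest ratios follow. Marcksl1, which binds actin and calmodulin, averaged 574 ± 403 TPM in ribosome-rich and 13.02 ± 37.9 TPM in low-ribosome cells, and 13 of 14 ribosome-rich cells lay above the highest low-ribosome cell. Tmsb4x, which binds actin monomers, ran from 616 through 3212 to 10922 TPM in ribosome-rich and from 0 through 0.83 to 924 TPM in low-ribosome cells, again with 13 of 14 above. Nptx2, a secreted neuronal pentraxin, was found in 12 of 14 ribosome-rich cells with a mean of 80.3 ± 90.05 TPM and in 0 of 76 low-ribosome cells. These 3 genes were therefore present in nearly every ribosome-rich cell.

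The remaining genes named in that direction were found in 7 or 8 of 14 ribosome-rich cells and in at most 5 low-ribosome cells. The matrix proteoglycan gene Bgn averaged 155 TPM in ribosome-rich and 0.188 TPM in low-ribosome cells. The surface protein gene Ly6e averaged 90.7 and 0.0563 TPM, Tmem178 66.7 and 0.00276 TPM, and the neuronal calcium sensor gene Ncald 119 and 1.80 TPM. Bex1 had a log2 ratio of 6.28, and 5.05 without ogp2 79, and Sncaip 5.88, and 4.95 without ogp15. Adgrv1, an adhesion G protein-coupled receptor, averaged 53.03 and 0.381 TPM.

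Elongation factors and TOP messages were the lists, of 45, whose summed share was higher in all 14 ribosome-rich cells than in any low-ribosome cell. The elongation factor gene Eef1a1 ran from 2668 through 5600 to 7986 TPM in ribosome-rich cells and from 0 through 734 to 2067 TPM in low-ribosome cells, so the classes did not overlap. It was one of the 403 of 9080 genes (4.44%) found in every ribosome-rich cell. Of 12 elongation factor genes 10 were at least 2-fold higher and 0 lower, with a median of 1.86. All 31 genes of the TOP list reached 10 TPM, and 27 of them were at least 2-fold higher and 0 lower, with a median of 2.00 (2.02 within ogp, 1.92 within ogp2). Several genes stand in both lists, Eef1a1 among them. The TOP list made up 1.15%, 1.86% and 2.89% of TPM (lowest, median, highest) in ribosome-rich and 0.150%, 0.398% and 0.810% in low-ribosome cells, again without overlap. Because TOP messages are regulated with the ribosomal proteins that chose the cells, this is close to what the rule used.

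Among the genes whose starts are printed above, Eif2s3x differed little, with 46.96 TPM in ribosome-rich and 34.4 TPM in low-ribosome cells. The noncoding host gene Gas5 averaged 1628 and 516 TPM, and the nucleosome assembly gene Nap1l1 192 and 52.02 TPM. Rack1, a ribosome-bound scaffold protein, averaged 496 ± 379 TPM in ribosome-rich and 74.7 ± 136 TPM in low-ribosome cells. It was found in 14 of 14 and 21 of 76 cells. Eif3f, a subunit of the initiation factor that recruits the small ribosomal subunit, averaged 218 ± 130 and 48.9 ± 76.5 TPM. Fau, a ubiquitin-like fusion that carries a ribosomal protein, averaged 222 ± 130 and 74.2 ± 139 TPM, with log2 ratios of 2.97 within ogp and 1.09 within ogp2. Pabpc1, the poly(A) binding protein and another gene of the TOP list, averaged 206 ± 186 and 29.2 ± 82.9 TPM.

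Initiation factors differed less than elongation factors, with 17 of 42 at least 2-fold higher, 1 lower and a median of 0.85. Eif4b, which assists the initiation helicase, had the highest ratio, with 101 ± 93.6 TPM in ribosome-rich and 15.8 ± 66.3 TPM in low-ribosome cells. Of 50 genes for the nucleolus and ribosome assembly, 34 were at least 2-fold higher and 0 lower, with a median of 1.40. Dkc1, the pseudouridine synthase of ribosomal RNA, averaged 74.5 and 11.5 TPM, and the nucleolar helicase gene Ddx21 26.9 and 2.83 TPM. Nhp2, a partner of Dkc1, had a log2 ratio of 2.83, and 2.18 without ogp32. Of 22 cytosolic tRNA synthetase genes 11 were higher and 0 lower, with a median of 1.03, and of 74 mitochondrial ribosomal protein genes 21 were higher (28.4%, beside 27.6% of all genes) and 6 lower, with a median of 0.66 that was 0.34 within ogp2.

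RNA processing and protein folding genes were also higher more often than lower. Of 58 splicing factor genes 28 were at least 2-fold higher and 1 lower, with a median of 0.94, and Hnrnpa1, which also counts as a TOP message, averaged 627 ± 630 TPM in ribosome-rich and 62.99 ± 128 TPM in low-ribosome cells. Of 31 chaperone genes 23 were higher and 0 lower, with a median of 1.32. Hspd1, the mitochondrial chaperonin, was found in all 14 ribosome-rich and 32 of 76 low-ribosome cells with means of 411 ± 260 and 88.1 ± 147 TPM, and the cytosolic chaperone gene Hsp90ab1 averaged 1062 ± 508 and 243 ± 266 TPM. Proteasome genes had 6 of 31 members higher (19.4%, beside 27.6% of all genes), 0 lower and a median of 0.54, which was 0.98 within ogp and 0.21 within ogp2. Psma7, a subunit of the core ring, averaged 683 ± 566 and 233 ± 243 TPM.

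Chromatin genes were higher too, with 23 of 30 at least 2-fold higher, 2 lower and a median of 1.65. Hmgn2, a nucleosome binding protein, ran from 539 through 2044 to 13783 TPM in ribosome-rich and from 0 through 266 to 1437 TPM in low-ribosome cells, with 9 of 14 ribosome-rich cells above the range of the others. Ptma, prothymosin alpha, averaged 1743 ± 1011 and 306 ± 270 TPM. Among tubulin and actin genes 12 of 20 were higher and 3 lower, with a median of 1.51, and the median was 1.76 within ogp and 0.70 within ogp2. Vim, the intermediate filament of progenitors and reactive glia, was found in 13 of 14 and 14 of 76 cells, with a log2 ratio of 3.61, and 2.94 without ogp15.

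**Figure D3:**
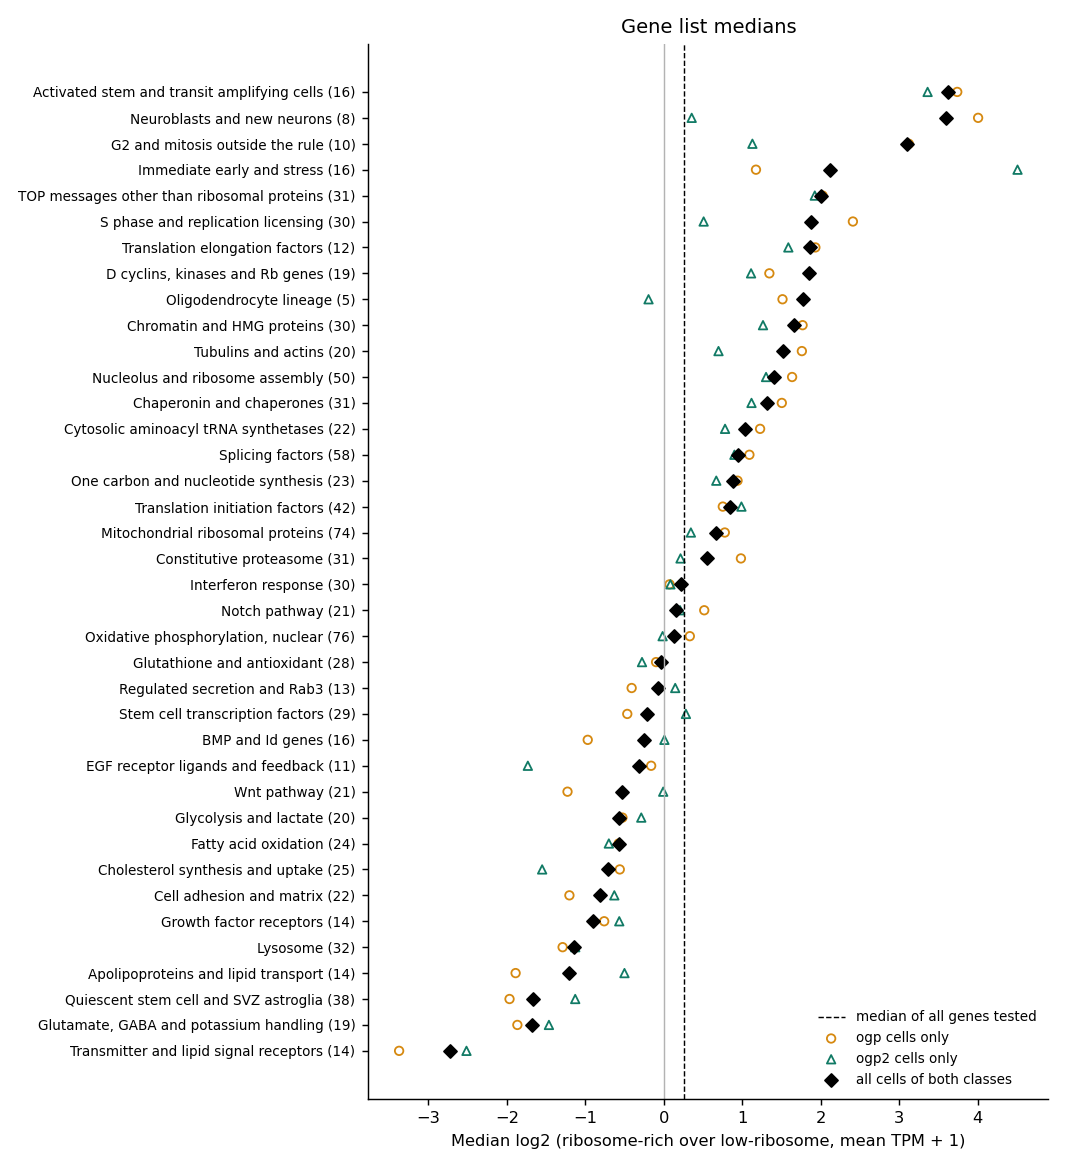
Median log2 ratio of ribosome-rich over low-ribosome cells for each gene list with at least 5 genes at 10 TPM (number in brackets), over all cells (diamonds) and within ogp (circles) and ogp2 (triangles) alone; the dashed line is the median of all genes tested, 0.26. Activated stem and transit amplifying genes have the highest median, 3.62, and transmitter and lipid signal receptors the lowest, -2.72.

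Control of G1 was examined through a list of D cyclins, their partner kinases, inhibitors of these kinases and Rb genes. Ccnd2 ran from 23.3 through 302 to 1127 TPM in ribosome-rich cells, found in all 14, and from 0 through 0.07 to 188 TPM in low-ribosome cells, found in 29 of 76. Its log2 ratio was 3.47 within ogp and 4.12 within ogp2. Of 19 genes of that list 13 were at least 2-fold higher and 0 lower, with a median of 1.85 (1.34 within ogp, 1.11 within ogp2). The higher members include the inhibitor genes Cdkn1a and Cdkn2c, so the count is not one of G1 drivers alone. Cdk4, a kinase that D cyclins activate, averaged 629 ± 546 TPM in ribosome-rich and 140 ± 181 TPM in low-ribosome cells. Its relative Cdk6 averaged 50.9 and 0.579 TPM, a log2 ratio of 5.04, and 4.45 without ogp68. Within ogp its log2 ratio was 6.38 and within ogp2 0.15. The inhibitor gene Cdkn1a, a target of p53, was found in 4 of 14 ribosome-rich and 0 of 76 low-ribosome cells, while Trp53, which encodes p53, was found in 10 and 20 cells at means of 202 and 45.6 TPM.

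Replication genes differed in amount between cells of the class, and all 14 ribosome-rich cells held a larger summed share than the median low-ribosome cell. Of 49 listed genes 30 reached 10 TPM, and 23 of them were at least 2-fold higher and 0 lower. The median of 1.87 was 2.41 within ogp and 0.51 within ogp2, and it was 1.26 without ogp111. That cell held 0.520% of its rescaled TPM in the list. Its genes add up to only 309864 TPM before rescaling, so this share depends on what its column lacks. The other 13 ribosome-rich cells held 0.0596% to 0.180% and low-ribosome cells at most 0.195%, against a median of 0.542% in mitotic cells. Pcna, the clamp of DNA polymerases, was found in 13 of 14 and 17 of 76 cells, at means of 172 ± 193 and 63.7 ± 138 TPM. Mcm2 was found in 4 and 0 cells and Mcm6 in 5 and 3. At least 1 of Mcm2 to Mcm7 was found in 12 of 14 ribosome-rich and 18 of 76 low-ribosome cells, and at least 3 of them in 2 and 0.

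Genes of G2 and mitosis outside the rule were near their floor in most cells. Their summed share had a median of 0.0609% of TPM in ribosome-rich and 0.0473% in low-ribosome cells. It was above the low-ribosome median in 10 of 14 ribosome-rich cells and below it in 4. In 2 cells, ogp111 (0.286%) and ogp32 (0.222%), it was above every low-ribosome cell. Of 34 listed genes 10 reached 10 TPM, 8 of them at least 2-fold higher and 0 lower. Members such as Ccnb2 and Ckap2 were near 0 in low-ribosome cells, so they could not have counted as lower. The list median of 3.10 was 3.12 within ogp and 1.13 within ogp2, and it was 2.12 without ogp32. Among the alternatives tried it went down to 0.98. Hmgb2, a chromatin protein of dividing progenitors, was found in 10 of 14 and 24 of 76 cells, with a log2 ratio of 1.68, and 0.89 without ogp32. Ckap2, a spindle protein, was found in 4 and 0 cells. Ccnb2, a mitotic cyclin, had 95.8% of its summed TPM over ribosome-rich cells in ogp32, and its log2 ratio of 4.46 was 0.96 without that cell.

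The summed share of neuroblast genes was above the low-ribosome median in 13 of 14 ribosome-rich cells and above every low-ribosome cell in 2. Its median was 0.0663% of TPM in ribosome-rich and 0.0379% in low-ribosome cells. Of 22 listed genes 8 reached 10 TPM, 6 of them at least 2-fold higher and 1 lower, with a median of 3.60 that was 4.00 within ogp and 0.36 within ogp2. Among the alternatives tried the median went down to 0.997. Members such as Elavl4, Cd24a and Tubb3 were near 0 in low-ribosome cells, so they could not have counted as lower. Stmn1, a microtubule regulator of growing cells, averaged 696 ± 976 TPM in ribosome-rich and 76.1 ± 161 TPM in low-ribosome cells. Elavl4, a neuronal RNA binding protein, was found in 5 and 0 cells, with a log2 ratio of 5.81, and 4.75 without ogp2 79. Cd24a, a surface marker of neuroblasts, was found in 2 and 0 cells, and Tubb3, a neuronal tubulin, in 2 and 0 cells, all of the ogp series. Dcx, the marker of migrating neuroblasts, was at 1 TPM in no cell of either class, as given above.

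Genes of quiescent stem cells and SVZ astroglia lay in the opposite direction, and all 38 reached 10 TPM. Of these 27 were at least 2-fold lower in ribosome-rich cells and 2 higher, with a median of -1.67 (-1.97 within ogp, -1.13 within ogp2). The list made up 1.10%, 4.52% and 12.3% of TPM (lowest, median, highest) in ribosome-rich cells and 8.26%, 17.1% and 26.5% in low-ribosome cells, and 10 of 14 ribosome-rich cells lay below every low-ribosome cell. It includes Slc1a3, whose protein GLAST the sort required, and many genes that astrocytes express.

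Clu, a secreted chaperone abundant in astroglia, ran from 0 through 427 to 5208 TPM in ribosome-rich and from 5136 through 13059 to 41721 TPM in low-ribosome cells, so 13 of 14 ribosome-rich cells lay below the range of the others. Gja1, the connexin 43 of astroglial gap junctions, ran from 0.22 through 186 to 1135 TPM and from 938 through 3399 to 9134 TPM, with 12 of 14 below. Apoe, the main lipid carrier of glia, averaged 13086 ± 9550 and 39735 ± 12960 TPM and was found in every cell. These messages were thus lower in amount and still detected in 11 to 14 of the 14 ribosome-rich cells.

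Aqp4, the water channel of astrocyte endfeet, was the gene with the lowest ratio among those that met the naming rule. It never passed 0.18 TPM in the 14 ribosome-rich cells and ran from 0 through 262 to 1017 TPM in low-ribosome cells, found in 70 of 76. In 336 of the 9080 genes (3.70%) no ribosome-rich cell reached 1 TPM. In mitotic cells Aqp4 was found in 6 of 13 and in intermediate cells in 24 of 30. Sfrp5, a secreted Wnt inhibitor, was listed at 0 in every ribosome-rich cell and found in 26 of 76 low-ribosome cells with a mean of 70.01 ± 121 TPM. Crym, a thyroid hormone binding protein, was found in 2 of 14 and 54 of 76 cells, with a log2 ratio of -5.18, and -10.82 without ogp2 79, where it stood at 943 TPM.

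Not all genes of the quiescent list were at least 2-fold lower, and 5 of 38 had a log2 ratio above 0. Gfap, the intermediate filament of SVZ stem cells and reactive astrocytes, was found in 6 of 14 ribosome-rich and 13 of 76 low-ribosome cells, at means of 473 ± 1014 and 61.5 ± 193 TPM. Its log2 ratio of 2.92 was 1.97 without ogp15, which held 3454 TPM. Gfap and Egfr were found together in 4 of 14 ribosome-rich, 1 of 13 mitotic, 5 of 30 intermediate and 3 of 76 low-ribosome cells. Thbs4, a matrix protein of SVZ stem cells, was found in 7 of 14 and 10 of 76 cells at means of 42.8 ± 55.7 and 61.9 ± 220 TPM. The tetraspanin gene Cd9 averaged 1034 ± 580 and 904 ± 693 TPM, and Sox9, a glial stem cell factor, 243 ± 159 and 283 ± 173 TPM.

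**Figure D4:**
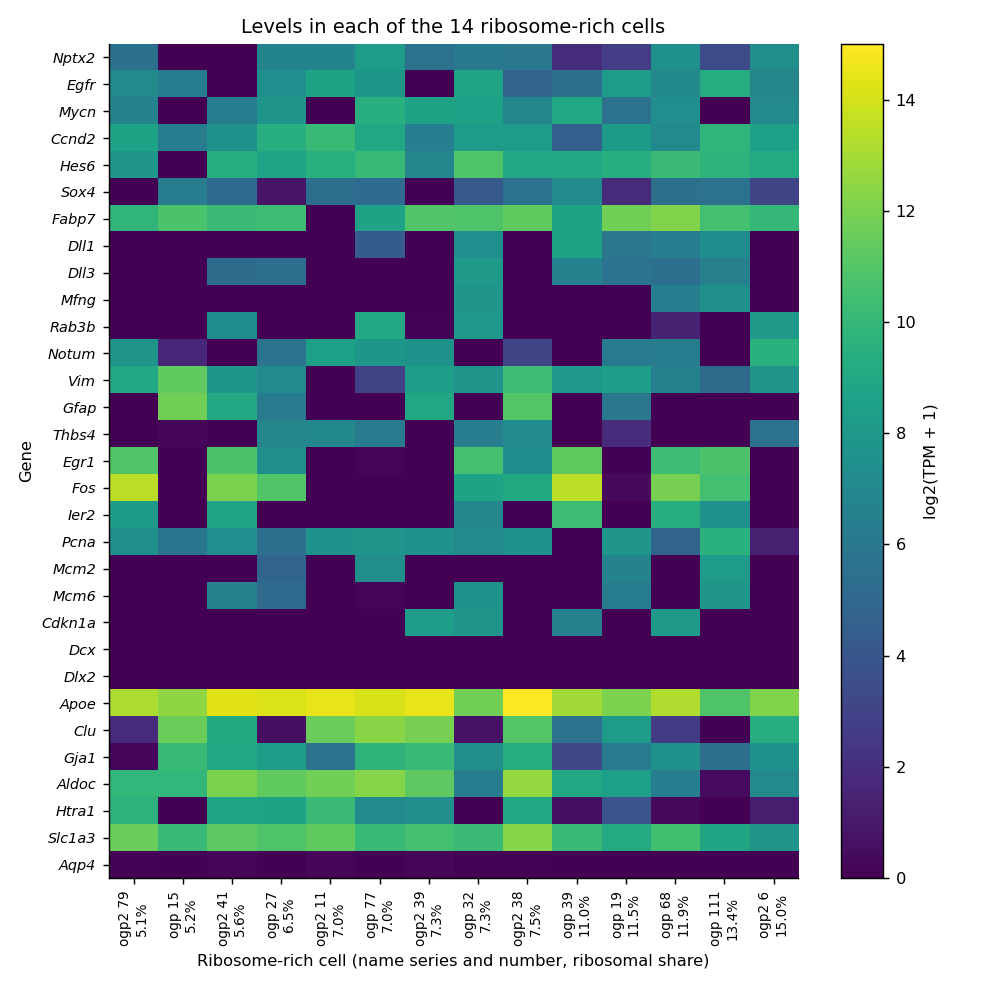
Level of 31 genes as log2(TPM + 1) in each of the 14 ribosome-rich cells, ordered from the lowest ribosomal share (5.14%, left) to the highest (15.01%, right). Mycn and Egfr are found in 11 and 12 cells, Gfap in 6, Mfng in 3 and Dcx and Dlx2 in none, while Apoe is high in all.

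Further genes that met the naming rule in the lower direction included Il33, an alarmin of glia, found in 0 of 14 ribosome-rich and 50 of 76 low-ribosome cells. Agt, angiotensinogen of astrocytes, was found in 1 and 39 cells, and Etnppl, an astrocyte enzyme of phosphoethanolamine breakdown, in 0 and 40. Slc39a12, a zinc transporter, was found in 1 and 70 cells, with a log2 ratio of -6.06, and -9.48 without ogp2 38. Cyp4f15, a cytochrome P450, was found in 2 and 69 cells, with a log2 ratio of -7.35, and -8.93 without ogp2 38. Eva1a, Paqr6 and C1qtnf5 were found in 0, 1 and 1 ribosome-rich cells and in 59, 42 and 55 low-ribosome cells. Chst1, a sulfotransferase, was found in 0 and 58 cells. Htra1, a secreted protease, and F3, tissue factor, were named after their values were seen; Htra1 averaged 265 ± 373 and 4282 ± 1956 TPM, and F3 132 ± 122 and 2095 ± 1132 TPM.

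The astroglial handling of glutamate, GABA and potassium was lower as a group. Of 19 genes 15 were at least 2-fold lower and 1 higher, with a median of -1.68, and 13 of 14 ribosome-rich cells had a smaller summed share than any low-ribosome cell. Slc1a2, the glutamate transporter GLT-1, averaged 301 ± 232 TPM in ribosome-rich and 966 ± 420 TPM in low-ribosome cells. Gjb6, connexin 30, was found in 3 of 14 and 63 of 76 cells, with a log2 ratio of -4.95, and -6.41 without ogp2 11. Slc38a1, a glutamine transporter, was the member that was higher, with 45.4 ± 50.8 and 2.36 ± 14.96 TPM. Of 14 transmitter and lipid signal receptors 13 were lower and 0 higher, with a median of -2.72. Gria2, an AMPA receptor subunit, was found in 1 of 14 ribosome-rich cells (4.59 TPM in ogp19) and 50 of 76 low-ribosome cells, and Adora2b, an adenosine receptor, was listed at 0 in all ribosome-rich cells and found in 31 of 76 low-ribosome cells.

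Adhesion and matrix genes had 9 of 22 members lower, 2 higher and a median of -0.81. Ncam1, the neural cell adhesion molecule, had a log2 ratio of -4.37, and -5.08 without ogp32, with means of 15.3 ± 28.1 TPM in ribosome-rich and 335 ± 268 TPM in low-ribosome cells. Sparcl1, a matricellular protein of astrocytes, averaged 664 ± 665 and 3289 ± 1501 TPM. Lysosomal genes were lower in 18 of 32 cases and higher in 0, with a median of -1.15. Ctsb, cathepsin B, was found in all 14 ribosome-rich cells at a mean of 144 ± 96.6 TPM and in 75 of 76 low-ribosome cells at 565 ± 277 TPM. Tpp1, a lysosomal peptidase, had a log2 ratio of -3.67, and -4.91 without ogp2 38.

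**Figure D5:**
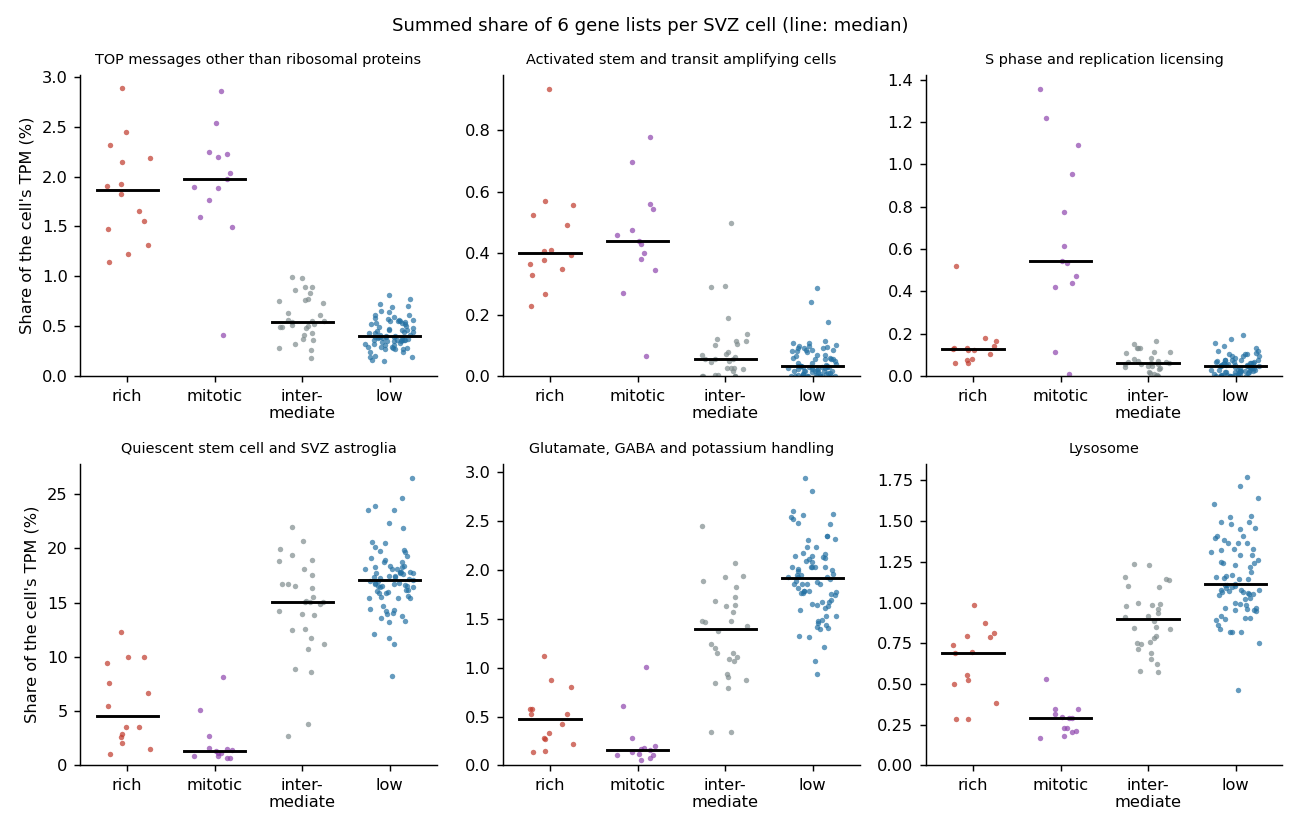
Summed share of the cell's TPM (%, y axis) held by 6 gene lists in every SVZ cell, by class from ribosome-rich through mitotic and intermediate to low-ribosome, with a line at the median. TOP messages hold a median of 1.86% in ribosome-rich and 0.398% in low-ribosome cells, and quiescent stem cell and astroglia genes 4.52% and 17.1%.

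Signalling lists held members in both directions, as genes in general did (27.6% higher, 21.2% lower). Among growth factor receptors Egfr went against most of its list, in which 7 of 14 were at least 2-fold lower, 2 higher and the median was -0.90. Fgfr3, a receptor of astroglia, was found in all 14 ribosome-rich cells at a median of 84.3 TPM and in 71 of 76 low-ribosome cells at a median of 353 TPM. Hbegf, a ligand of Egfr, never passed 0.16 TPM in ribosome-rich cells and was found in 31 of 76 low-ribosome cells with a mean of 67.4 ± 109.3 TPM. Tgfa, another ligand, was found in 1 of 14 and 16 of 76 cells. The ligand and feedback list as a whole had 1 of 11 members higher and 3 lower.

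Of 21 Notch pathway genes 8 were at least 2-fold higher and 3 lower, with a median of 0.16, which turned to -0.17 under median-ratio scaling. The higher members were the ligand genes Dll1, Dll3, Jag1 and Dner, the modifier Mfng, the nuclear effector Rbpj, and Hes1 and Hes6. Dll3, a Notch ligand that acts within the cell, was found in 7 of 14 ribosome-rich cells with values up to 261 TPM and listed at 0 in every low-ribosome cell. Mfng stood at 221, 177 and 83.6 TPM in ogp32, ogp111 and ogp68, all 3 of which also had Egfr, and was listed at 0 in all other ribosome-rich and all low-ribosome cells. The receptor gene Notch1 averaged 39.9 and 35.7 TPM, and Hes5, a Notch target in neural stem cells, 1239 ± 1739 and 738 ± 688 TPM.

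Of 21 Wnt pathway genes 6 were higher (28.6%) and 9 lower (42.9%), with a median of -0.53 that was -1.23 within ogp and -0.01 within ogp2. Notum, a secreted enzyme that inactivates Wnt ligands, was found in 10 of 14 ribosome-rich and 3 of 76 low-ribosome cells, at means of 142 ± 211 and 5.06 ± 29.9 TPM. It was found in 3 of 13 mitotic and 5 of 30 intermediate cells. The receptor genes Fzd2 and Lgr4 were lower, with 7.30 ± 14.6 and 62.8 ± 70.6 TPM for Fzd2 and, for Lgr4, 1 of 14 and 51 of 76 cells. Of 16 BMP pathway and Id genes 5 were higher (31.2%) and 6 lower (37.5%), with a median of -0.25 that was -0.97 within ogp and 0.01 within ogp2. Id2, an inhibitor of helix-loop-helix factors, had a log2 ratio of -2.95, and -3.57 without ogp77, with means of 220 ± 359 and 1712 ± 1304 TPM.

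Rab3b averaged 87.4 ± 163 TPM in ribosome-rich cells and 0.0525 ± 0.442 TPM in low-ribosome cells, with a log2 ratio of 6.39, and 5.68 without ogp77. Its values were 534, 275, 260 and 154 TPM in ogp77, ogp2 6, ogp32 and ogp2 41, and 1.82 TPM in ogp68. The list for regulated secretion did not follow it, with 3 of 13 genes higher (23.1%, beside 27.6% of all genes) and 2 lower (15.4%, beside 21.2%). Its median of -0.07 turned to 0.03 when cells were rescaled without ribosomal protein genes. Scg3, a granule protein of astroglia and neuroendocrine cells, was found in every cell of both classes and averaged 447 ± 371 and 1432 ± 719 TPM.

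Metabolic genes differed by pathway. Of 76 nuclear genes of oxidative phosphorylation 1 was at least 2-fold higher and 0 lower, with a median of 0.13, which turned to -0.10 under median-ratio scaling. That gene was Atp5e, a subunit of ATP synthase, at 692 ± 540 TPM in ribosome-rich and 239 ± 280 TPM in low-ribosome cells. Glycolysis genes had 5 of 20 lower (25%, beside 21.2% of all genes), 1 higher (5%, beside 27.6%) and a median of -0.56. The brain aldolase gene Aldoc averaged 1944 ± 2092 and 7953 ± 3448 TPM, and Pfkp, a phosphofructokinase, never passed 0.59 TPM in ribosome-rich cells and was found in 46 of 76 low-ribosome cells.

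Fatty acid oxidation genes had 5 of 24 lower (20.8%, beside 21.2% of all genes), 1 higher (4.17%) and a median of -0.57. The acyl-CoA synthetase gene Acsbg1 averaged 260 ± 288 TPM in ribosome-rich and 1115 ± 583 TPM in low-ribosome cells. Cholesterol genes had 11 of 25 lower, 0 higher and a median of -0.72 (-0.56 within ogp, -1.55 within ogp2). Sc5d, a sterol desaturase, never passed 0.61 TPM in ribosome-rich cells and was found in 45 of 76 low-ribosome cells. Lipid transport genes had 7 of 14 lower, 1 higher and a median of -1.21 (-1.89 within ogp, -0.50 within ogp2), with Fabp7 as the member that was higher. One-carbon and nucleotide synthesis genes had 11 of 23 higher, 2 lower and a median of 0.88. Their summed share, however, was above the low-ribosome median in 6 of 14 ribosome-rich cells and below it in 8. Rrm1, the large subunit of ribonucleotide reductase, averaged 70.5 ± 63.5 and 15.7 ± 49.1 TPM. Glutathione and antioxidant genes were near genes in general, with 6 of 28 higher (21.4%) and 7 lower (25.0%).

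Immediate early and stress genes respond to growth signals and also to tissue dissociation. Their summed share was above the low-ribosome median in all 14 ribosome-rich cells and above every low-ribosome cell in 0. Of 16 genes 13 were at least 2-fold higher and 1 lower, with a median of 2.12, which was 1.17 within ogp and 4.51 within ogp2. Fos or Egr1 was found in 8 of 14 ribosome-rich, 13 of 13 mitotic, 5 of 30 intermediate and 13 of 76 low-ribosome cells. Egr1 ran from 0 through 166 to 2555 TPM in ribosome-rich and from 0 through 0 to 948 TPM in low-ribosome cells. Fos reached 11446 TPM in ogp39 and 11122 TPM in ogp2 79, while the highest low-ribosome cell held 22022 TPM. Ier2 was found in 6 of 14 and 0 of 76 cells, with a log2 ratio of 7.70, and 7.03 without ogp39. The part of dissociation in these values was not tested. Interferon response genes had 9 of 30 higher (30%, beside 27.6% of all genes) and 7 lower (23.3%, beside 21.2%). Their median of 0.22 turned to -0.48 without ogp2 39 and to -0.05 under median-ratio scaling.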

How the data were processed

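The authors' deposited values are TPM per gene and cell, with STAR 2.4.0g1, RSEM 1.2.18 and mm10 named in the submitters' processing notes; the gene annotation is not given in the sources used here. Of 43309 gene identifiers, 42425 received a symbol from the reference table, leaving 42405 symbols. Each column was rescaled to 1000000 TPM and cells were classed by R. A gene's value is log2 of (mean TPM + 1) in ribosome-rich over low-ribosome cells. Depth per cell is unknown, so no depth-based limit is given. The interval on a share of cells is the exact Clopper-Pearson 95% one and covers counting error only (scipy 1.17.1, with python 3.11.15, numpy 2.4.6, pandas 2.3.3 and matplotlib 3.10.9). No pair of cells had identical columns. The log2 ratio was computed on shuffled low-ribosome cells with known folds put into some genes. This checks its arithmetic and not the classes or lists.

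Members, lists and comparisons were chosen with earlier results of these data known. Named genes had at least 50 TPM and detection in 50% of cells of the higher class, a 4-fold ratio and a 2-fold ratio in the same direction within each series, up to 12 per direction. In each list the 4 members with the most extreme ratios and 20 TPM or more in the higher class could also be named, and the choice among them was made with their values in view. Rab3b, Mfng, Egfr, Rplp0, Slc1a3, Prom1, Fau, Eef1a1, Gfap, Thbs4 and the mitotic genes were set. Further genes were chosen after their values were seen, among them Dcx, Dlx1, Dlx2, Apoe, Cd9, Crym, Fos, Pcna, Htra1, F3, Cdk4, Trp53, Sox9, Hes5, Stmn1, Slc1a2, Myc and Notch1. Some genes that met the rule are not reported here. Predicted genes and pseudogenes were counted and not named. Alternatives tried were other pseudocounts, detection limits, scalings and thresholds, each series alone, and classes without single cells. The astrocytes of striatum and cortex and the 18 population libraries were not analysed here.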

Additional observations from a re-analysis of the deposited data

How the results depend on the processing

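Of 173 named genes past 2-fold, 159 kept their direction under all alternatives tried, 9 reversed and 5 stood at 0 within ogp2. Many were chosen for the same direction in both series or for an extreme ratio in a list, which favours this count. Among all 4431 genes past 2-fold, 3735 (84.3%) had the same sign in both series, a narrower comparison. All 22 list medians past 2-fold kept theirs when members were filtered anew in each alternative; over the members of the full comparison, the oligodendrocyte lineage median was -0.19 within ogp2. With the mean over cells of log2(TPM + 1) in place of the log of the mean, 4147 genes were higher and 789 lower, and the medians were 4.04 for TOP messages, 2.31 for nucleolus and 4.55 for activated genes. With 10 TPM required in both classes, 1275 genes were higher, 845 lower, and the transmitter receptor median was -1.85. With 1 TPM in either class 3715 genes were lower and that median was -1.68. With a pseudocount of 10 the activated median was 2.65 and the transmitter median -1.58. The counts were 2644 higher and 2010 lower against the 31 low-ribosome cells with as many genes as the poorest ribosome-rich cell, and 2455 to 2611 higher and 1930 to 2002 lower when ribosome-rich cells were left out in turn; these alternatives were chosen after seeing the data.

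Reversed values among ogp2 cells alone were -0.0025 for Dll1, -4.00 for Ifit1, -2.20 for Mobp, -0.062 for Top2a, -0.0044 for Tubb3 and -0.070 for Ube2c. Among ogp cells alone they were -0.16 for Dusp1 and -3.21 for Oasl2. With R of 7 or more they were -0.56 for Dusp1, -2.58 for Mobp and -0.78 for Robo2, and with none of the 5 mitotic genes -0.0084 for Top2a. When ribosome-rich cells were left out in turn, Dusp1 ran from -0.28 (without ogp2 41) to 2.13, Ifit1 from -3.50 (without ogp77) to 1.88, Mobp from -2.58 (without ogp15) to 1.97, Oasl2 from -3.80 (without ogp2 39) to 1.93 and Top2a from -0.062 (without ogp19) to 1.84. The cause was not tested.

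No paired analysis was possible because cells carry no animal, cell numbers do not pair the classes and no result comes from a test. Each class is 1 sample of 14 or 76 cells from pooled mice, so no difference can be generalised beyond these cells, and series and unnamed batches cannot be told apart.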
